A study of Mus musculus with 8 samples.

Results

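The transcripts of 30 genes were present in IPO13+/+ mouse embryonic stem cells (mESCs) and at least 4-fold lower, in places almost absent, in IPO13-/- mESCs. They were selected on measured values from all 23420 gene symbols of the deposited tables, of which 13777 had a mean of at least 0.3 CPM in IPO13+/+ cells, CPM being the reads of a gene scaled to 1000000 counted reads of its library. A gene was taken if its IPO13+/+ mean reached 0.3 CPM, if that mean plus 0.02 CPM was at least 4 times the IPO13-/- mean plus 0.02 CPM, and if all 4 IPO13+/+ libraries lay above all 4 IPO13-/- libraries. The levels in each genotype are therefore a description of how the genes were chosen, and for these genes only the response to H2O2 was tested, a contrast the choice did not use as such but limited through its condition on all 8 libraries.

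IPO13 is an importin-β family receptor that carries proteins both into and out of the nucleus, among them transcription factors. Loss of a transport receptor can reach the transcriptome through the proteins it carries, and H2O2 is the standard agent used to bring about oxidative stress in cultured cells. The genes described here are of many kinds. They include enzymes of glycolipid synthesis, ubiquitin pathway proteins, homeobox factors, calcium and contraction proteins of muscle and sperm, vitamin carriers and enzymes, immune receptors and several transcripts without a protein product.

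The groups were IPO13+/+ and IPO13-/- mESCs, each either untreated or exposed to 125 µM H2O2 for 1 h and left for 2 h in fresh medium, with 2 libraries in each of the 4 groups. The labels give all 8 libraries the strain background 129 x C57BL/6 and an origin in blastocysts at day 5 of preimplantation development, and the cells grew without feeders in medium with LIF. How many lines, clones or embryos stand behind a genotype is not given in the sources used here, so a difference between genotypes and a difference between lines cannot be told apart. Nor do the labels say whether replicate libraries came from separate cultures, and p-values then measure only the spread between these libraries.

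Between 60397877 and 73789079 reads were counted on genes per library, so that 3 counts corresponded to 0.0407 to 0.0497 CPM. The 10 stem cell markers, Pou5f1, Sox2 and Nanog among them, were present in every library, and their summed level was 6483 to 6709 CPM in IPO13+/+ and 5966 to 6255 CPM in IPO13-/- libraries, without overlap. Dppa5a alone had means of 1963 and 1406 CPM, and the other 9 markers summed to 4482 to 4793 CPM and 4516 to 4892 CPM, which overlapped. Sums of other cell types were low and overlapped between the genotypes, although single markers did not. The 5 trophectoderm markers gave 5.74 to 7.36 CPM against 5.87 to 7.57 CPM, the 5 primitive endoderm markers 15.5 to 21.5 CPM against 14.96 to 19.2 CPM and the 5 fibroblast markers 7.15 to 9.27 CPM against 6.43 to 8.76 CPM, with Col3a1 at or under 0.017 CPM. Without overlap, Gata3 (1.73 to 2.17 CPM against 3.22 to 3.70 CPM) and Thy1 (3.86 to 4.82 CPM against 5.15 to 6.40 CPM) were higher, and Krt7 (2.44 to 3.62 CPM against 1.22 to 1.86 CPM) and Col1a1 (2.17 to 4.76 CPM against 0.962 to 2.04 CPM) lower, in IPO13-/- cells. At lower levels, also without overlap, Col1a2 (0.13 to 0.235 CPM against 0.285 to 0.404 CPM) was higher there. Sox17 (0.375 to 0.617 CPM against 0.298 to 0.364 CPM) and Twist2 (0.058 to 0.13 CPM against 0 to 0.031 CPM) were lower. The 3 macrophage markers tabulated summed to 0.491 to 0.735 CPM against 0.431 to 0.683 CPM, with Ptprc at or under 0.111 CPM, and further macrophage genes, some of them lower in IPO13-/- cells, are given with the gene lists at the end. In bulk RNA, fewer cells that express a gene and less RNA per cell cannot be told apart.

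The targeted gene was lower but not lost. Ipo13 gave 68.2 and 66.5 CPM in untreated and 72.4 and 69.1 CPM in treated IPO13+/+ cells, and 26.6 and 25.7 CPM in untreated and 25.01 and 26.0 CPM in treated IPO13-/- cells. Its mean level in IPO13-/- cells was 37.4% of that in IPO13+/+ cells, a ratio of 2.67, which keeps Ipo13 itself outside the group. Which part of the gene was deleted is not given in the sources used here, and counts per gene do not separate exons.

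The sequences around the starts of 4 of the most reduced genes are printed, because a promoter is where the lost transcripts would begin. They were chosen as the genes with the largest ratio that had an entry among the RefSeq promoter windows of GRCm38.p6, each window holding 250 bases before and 50 bases from the start. A3galt2, encoding an enzyme that adds a terminal galactose to glycosphingolipids, has its window at chr4:128759008-128759307 on the plus strand. Vsx1, encoding a paired-like homeobox factor of the retina, has its window at chr2:150689088-150689387 on the minus strand, Ipp, encoding an actin-binding kelch repeat protein, at chr4:116507299-116507598 on the plus strand, and Pgpep1l, encoding a protein similar to pyroglutamyl-peptidase, at chr7:68264184-68264483 on the minus strand. Capitals mark matches, on either strand, to GGGCGG, the core of the box known to bind Sp1, to CACCC, the core of boxes that KLF factors bind, to GCGTG, the core of aryl hydrocarbon receptor elements, and to TATAAA, the core promoter element.
A3galt2: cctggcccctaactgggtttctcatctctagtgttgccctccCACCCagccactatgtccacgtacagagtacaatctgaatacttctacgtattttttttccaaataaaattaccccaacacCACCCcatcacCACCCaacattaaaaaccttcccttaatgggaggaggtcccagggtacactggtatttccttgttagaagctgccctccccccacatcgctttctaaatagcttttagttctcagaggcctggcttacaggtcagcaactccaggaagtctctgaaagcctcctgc
Vsx1: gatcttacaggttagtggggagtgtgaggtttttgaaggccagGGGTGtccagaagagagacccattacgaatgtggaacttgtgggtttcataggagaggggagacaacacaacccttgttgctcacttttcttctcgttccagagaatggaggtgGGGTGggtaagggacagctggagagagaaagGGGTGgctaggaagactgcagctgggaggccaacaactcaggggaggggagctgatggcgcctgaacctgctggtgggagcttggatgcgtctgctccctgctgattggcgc
Ipp: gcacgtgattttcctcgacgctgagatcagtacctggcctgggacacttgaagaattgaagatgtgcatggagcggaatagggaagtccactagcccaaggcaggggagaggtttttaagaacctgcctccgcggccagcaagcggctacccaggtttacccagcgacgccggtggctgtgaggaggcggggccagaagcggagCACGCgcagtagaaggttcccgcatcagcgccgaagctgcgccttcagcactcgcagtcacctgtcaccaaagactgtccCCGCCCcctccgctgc
Pgpep1l: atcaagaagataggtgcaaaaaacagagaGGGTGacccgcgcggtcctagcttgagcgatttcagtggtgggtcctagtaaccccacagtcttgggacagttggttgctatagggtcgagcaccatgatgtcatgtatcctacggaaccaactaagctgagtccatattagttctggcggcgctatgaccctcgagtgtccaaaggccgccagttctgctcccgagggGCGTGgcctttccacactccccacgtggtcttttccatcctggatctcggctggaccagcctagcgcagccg

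A3galt2 held 3 matches to CACCC, all on the plus strand of its transcript, and Vsx1 held 3 on the opposite strand. In Ipp there was 1 GGGCGG and 1 GCGTG, both on the opposite strand, and in Pgpep1l 1 CACCC on the opposite strand and 1 GCGTG on the plus strand. None of the 4 windows contained TATAAA. Of all 32851 windows of that length, 35.66% held GGGCGG, 57.52% CACCC, 32.39% GCGTG and 13.62% TATAAA, so that each of these matches is common. Only 16 of the 30 genes (53.33%) had a window, too few for a share over the group. These matches are letters in a window and not measured binding, and for A3galt2 and Vsx1 the RefSeq start lies inside the gene as GENCODE draws it (chr4:128755364-128769298 and chr2:150680702-150689360).

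Among the 30 genes the ratio of IPO13+/+ to IPO13-/- ran from 4.03 to 89.8 with a median of 7.25. It was over 10 for 8 genes, 5 to 10 for 14 and under 5 for 8. On the log2 scale the median difference, IPO13-/- over IPO13+/+, was -2.86, beside 0.03 over all genes at 0.3 CPM or more in IPO13+/+ cells. By level in IPO13+/+ cells, 10 genes lay under 1 CPM, 14 from 1 to 10 CPM and 6 at 10 CPM or more. The groups do not overlap for any of the 30 because the choice asked for it. Just outside the ratio lay Lefty1, a secreted inhibitor of Nodal, at 3.95, the proteoglycan gene Srgn at 3.91 and the dehydrogenase gene Dhrsx at 3.86, while Pde3a at 4.10 and Rbbp8nl at 4.03 were the last inside.

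**Figure D1:**
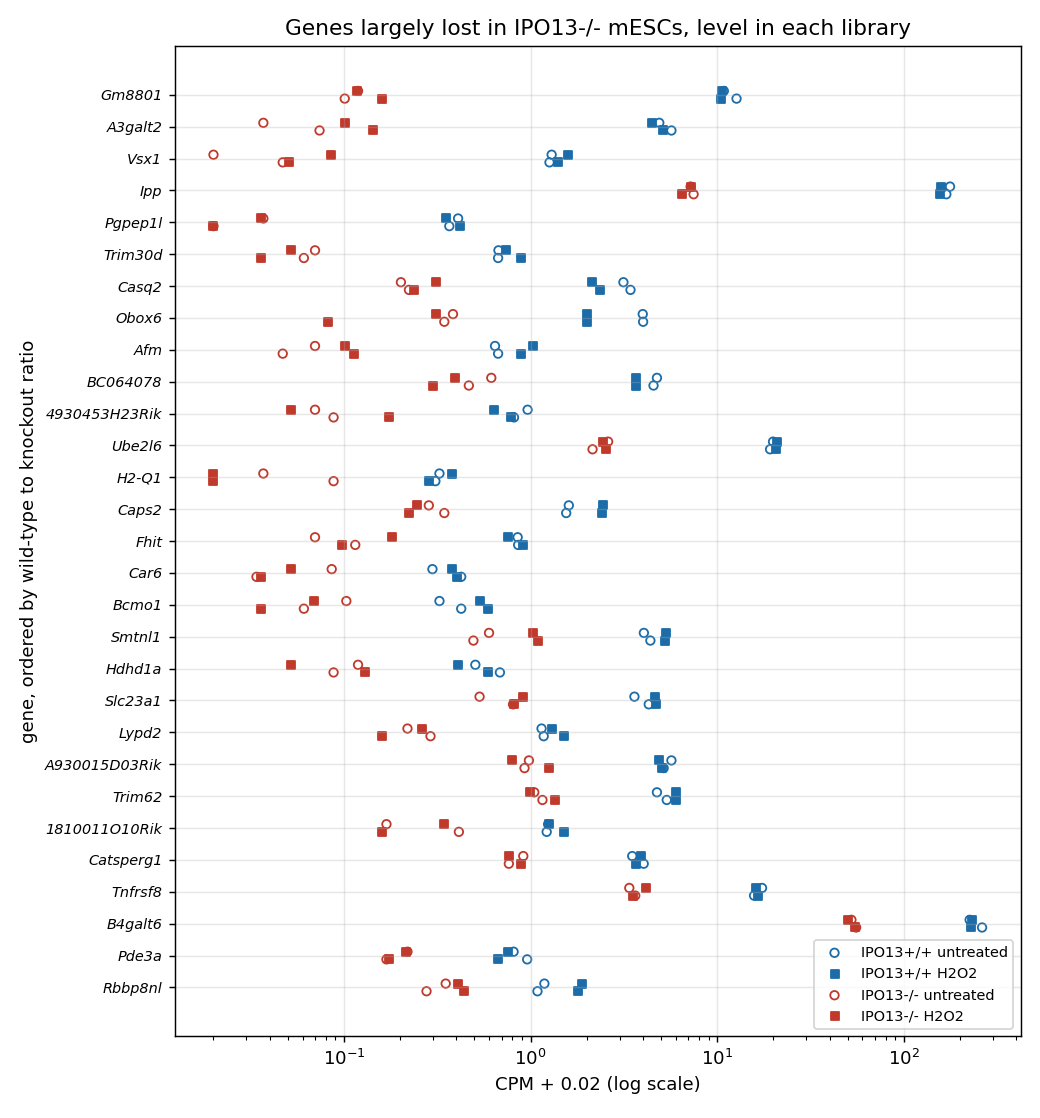
Level of 29 of the 30 genes in each of the 8 libraries, as CPM + 0.02 on a log axis, with genes ordered from the largest ratio of IPO13+/+ to IPO13-/- at the top; open circles are untreated and filled squares H2O2-treated libraries, blue for IPO13+/+ and red for IPO13-/-. Every blue symbol lies to the right of every red symbol of the same gene, as the choice of genes requires, and the gap narrows from 89.8-fold for Gm8801 to 4.03-fold for Rbbp8nl.

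The largest ratio, 89.8, belonged to Gm8801 (ENSMUSG00000092284), which GENCODE lists as an unprocessed pseudogene at chr17:35947246-35952297 on GRCm38, in the major histocompatibility complex region. Its libraries gave 12.7 and 10.8 CPM in the untreated and 10.4 and 10.6 CPM in the H2O2-treated IPO13+/+ libraries, against 0.081 and 0.099 CPM in the untreated and 0.14 and 0.097 CPM in the treated IPO13-/- libraries. All 4 IPO13+/+ libraries were thus above 10 CPM and all 4 IPO13-/- libraries at or under 0.14 CPM, the latter from 27 counts in all. Per kilobase of exon its IPO13+/+ level was 10.5 CPM, the third highest of the 30 genes. As a pseudogene it may share reads with its source gene, and its value is uncertain in that respect.

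Among the 30 genes, 2 encode enzymes of glycosphingolipid synthesis. A3galt2 (ENSMUSG00000028794) makes isogloboside-type glycolipids by adding an α1,3-linked galactose. It was counted at 5.66 and 4.87 CPM in the untreated and 5.08 and 4.44 CPM in the H2O2-treated IPO13+/+ libraries, against 0.054 and 0.017 CPM in the untreated and 0.124 and 0.081 CPM in the treated IPO13-/- libraries. The ratio was 56.6, and the treated IPO13-/- libraries lay above the untreated ones while all 4 remained at or under 0.124 CPM. They held 4 and 1 counts untreated and 8 and 5 treated, and that response was not called (edgeR FDR 0.125). B4galt6 (ENSMUSG00000056124) encodes a lactosylceramide synthase, the enzyme that places galactose on glucosylceramide. Its level was 263 and 225 CPM in the untreated and 230 and 232 CPM in the H2O2-treated IPO13+/+ libraries, against 55.5 and 52.4 CPM in the untreated and 54.4 and 50.1 CPM in the treated IPO13-/- libraries. B4galt6 was the most abundant gene of the group in CPM and the second per kilobase, at 40.9 CPM per kilobase in IPO13+/+ and 9.14 in IPO13-/- cells, and its 4 IPO13-/- libraries lay within 50.1 to 55.5 CPM. Beside these 2 stand the other 12 enzymes of a list of 14, drawn up after these genes were seen and not tested. The paralog B4galt5 had a mean of 33.5 CPM in IPO13+/+ and 57.2 CPM in IPO13-/- cells, and Ugcg, which makes the glucosylceramide, 33.3 and 42.6 CPM. St8sia1, which builds the disialylated gangliosides, had 10.9 and 21.4 CPM, and A4galt, which opens the globoside branch, 6.75 and 4.61 CPM. B3gnt5, of the lacto series, had 12.4 and 19.9 CPM and Gbgt1, of the globo series, 1.11 and 0.737 CPM. B4galt5 and Gbgt1 lie on chromosome 2, where all expressed genes together were shifted up in IPO13-/- cells (median log2 0.32). The part of that shift in their levels was not tested. For St3gal5, St3gal2, Ugt8a, B4galnt1, B3galt4 and Gal3st1, the IPO13-/- mean was 78.5% to 120% of the IPO13+/+ mean.

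Ipp (ENSMUSG00000028696) was the most abundant of the 30 per kilobase, with 77.7 CPM per kilobase of exon in IPO13+/+ cells and 3.33 in IPO13-/- cells. Its kelch repeats bind actin. Per library it gave 169 and 177 CPM in the untreated and 157 and 158 CPM in the H2O2-treated IPO13+/+ libraries, against 7.45 and 7.19 CPM in the untreated and 6.49 and 7.2 CPM in the treated IPO13-/- libraries. The 4 IPO13-/- libraries were within 6.49 to 7.45 CPM, 4.29% of the IPO13+/+ mean, and with 1846 counts behind them this remainder was far above the counting floor. Ipp lies at chr4:116507549-116538243, 1.38 Mb from Ipo13.

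A pair of homeobox genes belonged to the group. Vsx1 (ENSMUSG00000033080) read 1.24, 1.28, 1.38 and 1.57 CPM in IPO13+/+ cells and 0.027, 0, 0.031 and 0.065 CPM in IPO13-/- cells, where, here and for the genes that follow, the first 2 values of a genotype are the untreated and the last 2 the treated libraries. The IPO13-/- values rest on 8 counts in all against 381 in IPO13+/+ cells, which gives a depth-scaled ratio of 44.5 with an exact 95% interval of 22.3 to 104 from counting error alone. Such intervals pool both treatments and do not allow for the choice of the genes on these same counts. With 0.02 CPM added, as in the choice, the ratio of Vsx1 was 27.3. Obox6 (ENSMUSG00000041583), an oocyte-specific homeobox gene that is also expressed in early embryos, showed 3.99, 3.97, 1.98 and 1.99 CPM in IPO13+/+ cells and 0.325, 0.364, 0.062 and 0.292 CPM in IPO13-/- cells. Its ratio was 10.7, and in both genotypes the treated libraries were the lower ones. The related Obox3 and Obox5 were at or under 0.027 CPM throughout.

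The ubiquitin pathway was represented by 3 genes. Ube2l6 (ENSMUSG00000027078) is the E2 enzyme that conjugates ISG15 in interferon-treated cells. It was counted evenly, at 19.2, 19.9, 20.5 and 20.9 CPM in IPO13+/+ cells and 2.13, 2.58, 2.5 and 2.42 CPM in IPO13-/- cells. Its ratio was 8.3, and the ubiquitin-conjugating paralog Ube2l3 did not share it, with 161 CPM in IPO13+/+ and 165 CPM in IPO13-/- cells. Trim30d (ENSMUSG00000057596), of the interferon-linked Trim30 cluster, had 0.65, 0.653, 0.867 and 0.721 CPM in IPO13+/+ cells and 0.041, 0.05, 0.016 and 0.032 CPM in IPO13-/- cells. It was at or under 3 counts in every IPO13-/- library, with 9 counts in all against 201, a depth-scaled ratio of 20.9 with an exact 95% counting interval of 10.8 to 46.3. The near relative Trim30a went the other way, with means of 0.177 CPM in IPO13+/+ and 0.339 CPM in IPO13-/- cells, and reads of such a cluster may be split between copies. Trim62, a RING-type ubiquitin ligase, had a mean of 5.52 ± 0.602 CPM (SD, n = 4) in IPO13+/+ and 1.12 ± 0.16 CPM in IPO13-/- cells.

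Calcium and contraction genes included Casq2, Caps2, Smtnl1 and Catsperg1. Casq2 (ENSMUSG00000027861) encodes cardiac calsequestrin, which stores calcium in the sarcoplasmic reticulum. Its libraries held 3.41 and 3.12 CPM in the untreated and 2.34 and 2.12 CPM in the H2O2-treated IPO13+/+ libraries, against 0.203 and 0.182 CPM in the untreated and 0.217 and 0.292 CPM in the treated IPO13-/- libraries. In IPO13+/+ cells both treated libraries were below both untreated ones, while in IPO13-/- cells both treated libraries were above both untreated ones. The IPO13-/- values rest on 15 and 11 counts untreated and 14 and 18 treated, and that response was not called (edgeR FDR 0.464). The skeletal form Casq1 was lower as well, with a mean of 3.44 CPM in IPO13+/+ and 1.03 CPM in IPO13-/- cells. Caps2 (ENSMUSG00000035694), a calcium-binding EF-hand protein, gave 1.53, 1.58, 2.38 and 2.44 CPM in IPO13+/+ cells and 0.325, 0.265, 0.202 and 0.227 CPM in IPO13-/- cells. Treated libraries were above untreated ones in IPO13+/+ and below them in IPO13-/- cells. The IPO13-/- values rest on 24 and 16 counts untreated and 13 and 14 treated, and that response was not called (edgeR FDR 0.399).

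Smtnl1 (ENSMUSG00000027077), a smoothelin-like regulator of muscle contraction, had 4.36 and 4.03 CPM in untreated and 5.25 and 5.32 CPM in treated IPO13+/+ cells. In IPO13-/- cells it had 0.474 and 0.579 CPM in untreated and 1.07 and 1.0 CPM in treated libraries. Treated libraries exceeded untreated ones in both genotypes. Its relative Smtnl2 had means of 31.3 and 37.2 CPM. Catsperg1, an auxiliary subunit of the sperm calcium channel, went from a mean of 3.77 to 0.814 CPM, and its copy Catsperg2 was at or under 0.159 CPM in every library.

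Genes of vitamin and nutrient handling were 3. Afm (ENSMUSG00000029369) encodes afamin, a plasma glycoprotein that binds vitamin E. Its counts came to 0.65, 0.625, 0.867 and 1.01 CPM in IPO13+/+ cells and 0.027, 0.05, 0.093 and 0.081 CPM in IPO13-/- cells. In the IPO13-/- cells 2 of the 4 libraries were at or under 3 counts. Slc23a1, a transporter of vitamin C, had a mean of 4.29 ± 0.501 CPM against 0.746 ± 0.163 CPM (SD, n = 4), while Slc23a2, the other vitamin C transporter, had 98.9 and 120 CPM. That is a log2 difference of 0.28 for Slc23a2, which lies on chromosome 2, where all expressed genes together had a median of 0.32. Bcmo1, now named Bco1, cleaves β-carotene to retinal, and its level was 0.305 to 0.573 CPM in IPO13+/+ and 0.016 to 0.083 CPM in IPO13-/- libraries, with 3 of the latter at or under 3 counts.

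A pair of immune genes belonged to the group. H2-Q1 (ENSMUSG00000079507), a class I histocompatibility gene, was near the entry level with 0.289, 0.305, 0.265 and 0.36 CPM in IPO13+/+ cells and 0.068, 0.017, 0 and 0 CPM in IPO13-/- cells. Both treated IPO13-/- libraries were at 0 counts, and the whole genotype held 6 counts against 85, a depth-scaled ratio of 13.2 with an exact 95% counting interval of 5.83 to 37.1. Other class I genes differed among themselves, since H2-T23 was lower, with 0.666 to 0.91 CPM in IPO13+/+ and 0.232 to 0.352 CPM in IPO13-/- libraries, while H2-K1 had means of 17.95 and 28.2 CPM, H2-D1 3.44 and 4.17 CPM and the adjoining H2-Q2 0.373 and 0.572 CPM. Reads may be split between such near-identical genes. Tnfrsf8 (ENSMUSG00000028602) encodes CD30, a receptor of the tumor necrosis factor family known from activated lymphocytes. Its level was 15.7, 17.4, 16.6 and 16.2 CPM in IPO13+/+ cells and 3.62, 3.36, 3.51 and 4.15 CPM in IPO13-/- cells. Tnfrsf8 was the fifth of the 30 per kilobase at 4.76 CPM, and its ratio was 4.48.

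The remaining protein-coding genes covered several kinds of metabolism and signalling. Pgpep1l (ENSMUSG00000030553) was almost absent without IPO13. The libraries gave 0.347, 0.389, 0.397 and 0.332 CPM in IPO13+/+ cells and 0, 0.017, 0 and 0.016 CPM in IPO13-/- cells. That is 2 counts in all against 102, a depth-scaled ratio of 47.6 with an exact 95% counting interval of 12.9 to 399. Fhit (ENSMUSG00000060579), a hydrolase of diadenosine triphosphate at a fragile site, had 0.838, 0.833, 0.896 and 0.735 CPM in IPO13+/+ cells and 0.095, 0.05, 0.078 and 0.162 CPM in IPO13-/- cells. Car6 (ENSMUSG00000028972), the secreted carbonic anhydrase of saliva, was low in all libraries, at 0.405, 0.278, 0.382 and 0.36 CPM in IPO13+/+ cells and 0.014, 0.066, 0.016 and 0.032 CPM in IPO13-/- cells. Its 8 counts in IPO13-/- cells against 99 make a depth-scaled ratio of 11.6 with an exact 95% counting interval of 5.64 to 27.5. Both genes had an IPO13+/+ level under 1 CPM.

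Hdhd1a, now named Pudp, a phosphatase of pseudouridine monophosphate, had 0.389 to 0.665 CPM in IPO13+/+ and 0.032 to 0.109 CPM in IPO13-/- libraries. Pde3a, a phosphodiesterase of cyclic nucleotides, had 0.647 to 0.939 CPM and 0.149 to 0.199 CPM, and its relative Pde3b means of 6.60 and 9.19 CPM. Lypd2, of the Ly6 family, lay at 1.12 to 1.5 CPM against 0.14 to 0.271 CPM. Rbbp8nl, named for its similarity to the DNA end resection factor RBBP8, lay at 1.07 to 1.86 CPM against 0.257 to 0.419 CPM. For 1810011O10Rik, now named Tcim, a regulator linked to Wnt signalling, the ranges were 1.2 to 1.5 CPM and 0.14 to 0.393 CPM.

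Besides Gm8801, 3 genes do not encode a protein. BC064078 (ENSMUSG00000087150) is a transcribed unprocessed pseudogene. It was counted at 4.54, 4.74, 3.63 and 3.66 CPM in IPO13+/+ cells and 0.447, 0.596, 0.28 and 0.373 CPM in IPO13-/- cells. The lincRNA gene 4930453H23Rik (ENSMUSG00000087358) was the only one of the 30 on the X chromosome and gave 0.795, 0.944, 0.764 and 0.62 CPM in IPO13+/+ cells and 0.068, 0.05, 0.155 and 0.032 CPM in IPO13-/- cells. A930015D03Rik is annotated as antisense to class I histocompatibility genes, and its ranges were 4.83 to 5.66 CPM against 0.778 to 1.24 CPM. It overlaps exons of H2-T22, which was itself at or near 0 in these libraries, and without strand the reads of such a pair cannot be told apart. It also spans H2-T23, which had means of 0.732 and 0.281 CPM, but their exons do not overlap in GENCODE.

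Where the genes lie was not part of the choice. Ipo13 is on chromosome 4, and so were 5 of the 30 genes (16.7%), beside 6.50% of all expressed genes with a position. Chromosomes 2 and 7 held 4 genes each and chromosomes 17 and 18 held 3 each. On chromosome 4 the distances from Ipo13 were 1.38 Mb for Ipp, 10.9 Mb for A3galt2, 11.0 Mb for Trim62, 27.4 Mb for Tnfrsf8 and 32.3 Mb for Car6. Within 10 Mb of Ipo13 lay 185 expressed genes, of which 1 was in the group, and within 25 Mb 463, of which 3 were. Over all chromosomes it was 30 of 13632 expressed genes with a position. The median log2 difference of all expressed genes within 10 Mb was 0.01 and within 25 Mb 0.00, while the genes nearest to Ipo13 on 1 side were lower, with Artn at -1.33 and St3gal3 at -0.70, as was 2610528J11Rik at 0.624 Mb with -1.95. Others nearby were higher, with Hyi on the same side at 0.81 and Dmbx1 on the other side at 2.32. On chromosome 2, where Vsx1, Ube2l6, Smtnl1 and Rbbp8nl lie, all expressed genes together were shifted up in IPO13-/- cells, with a median of 0.32 beside -0.04 to 0.12 on the other chromosomes, and the part of that shift in these 4 ratios was not tested.

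**Figure D2:**
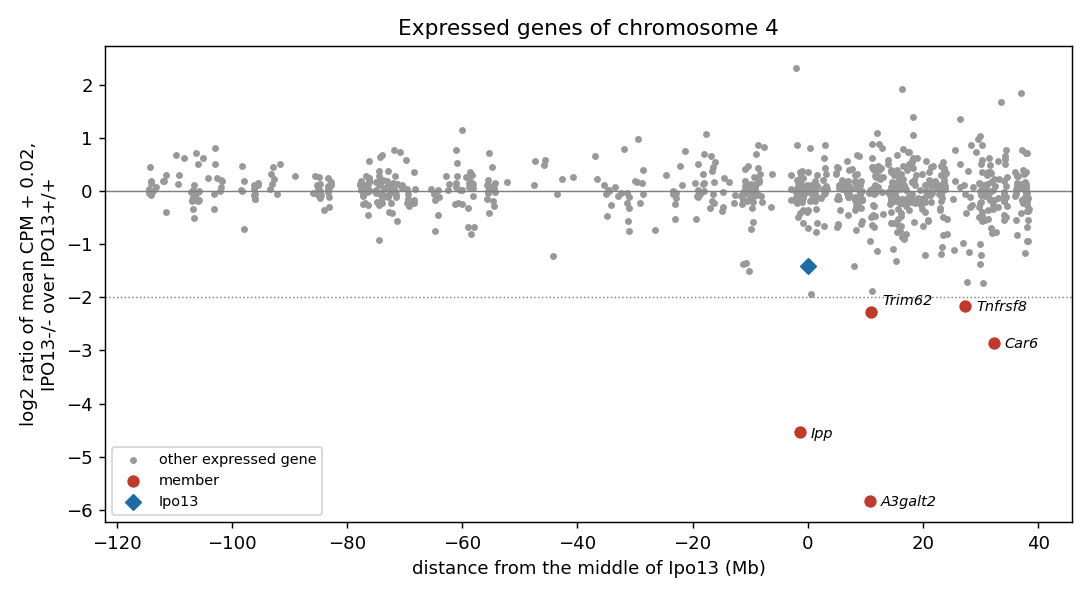
Expressed genes of chromosome 4, with the log2 ratio of mean CPM + 0.02 in IPO13-/- over IPO13+/+ cells against the distance from the middle of Ipo13 in Mb; red points are the 5 genes of the group, the blue diamond is Ipo13 and the dotted line marks the 4-fold limit of the choice. Most genes around Ipo13 scatter around 0, though Artn beside it is at -1.33, 2610528J11Rik at -1.95 and Dmbx1 at 2.32. Ipp at 1.38 Mb and A3galt2 at 10.9 Mb stand far below their surroundings.

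Some of the genes were close to one another. Within 1 Mb of another gene of the group lay 7 of the 30 (23.3%). For the opposite choice, with the genotypes exchanged, 90 genes were found, of which 47 were on the X chromosome, and 43 of the 89 with a position (48.3%) lay within 1 Mb of another. Ube2l6 and Smtnl1 end 840 bases apart on chromosome 2, on opposite strands. A3galt2 and Trim62 lie 114 kb apart on chromosome 4. Gm8801 and A930015D03Rik are 42.2 kb apart on chromosome 17, and H2-Q1 is 622 kb from Gm8801.

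The genes on either side were mostly unlike them. Of 57 nearest expressed neighbours that were not themselves in the group, 2 were lower by 2-fold or more in IPO13-/- cells and 2 higher (3.51% each), beside 1.55% lower and 1.65% higher of all expressed genes, and their median log2 difference was 0.06. Gm8801 lies between Ppp1r10 at 0.17 and Abcf1 at 0.06, and Ipp between Mast2 at 0.12 and Tmem69 at 0.36. Next to A3galt2, Phc2 was at 0.01 and Zfp362, which lies between A3galt2 and Trim62, at -0.95, although the Zfp362 libraries overlapped, with 2.86 to 6.07 CPM in IPO13+/+ and 1.61 to 2.998 CPM in IPO13-/- cells. On the far side of Ube2l6, Serping1 was at -0.76, and beyond Smtnl1, Timm10 was at 0.06. The 2 lower neighbours were Fam169b beside Pgpep1l at -1.25 and H2-T23 beside A930015D03Rik at -1.32, and the 2 higher ones Usp17le beside Trim30d at 1.07 and Pzp beside BC064078 at 1.08.

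**Figure D3:**
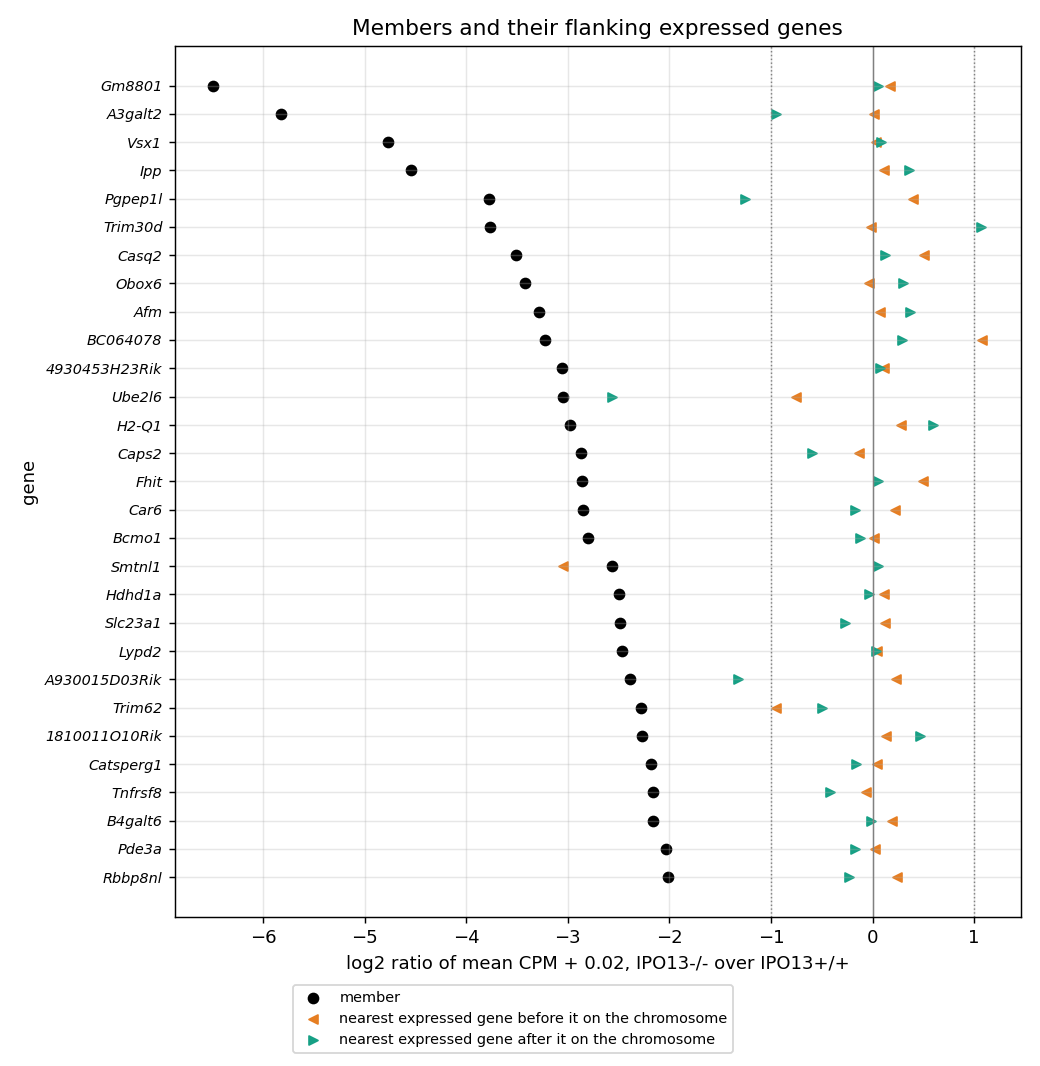
Log2 ratio of mean CPM + 0.02 in IPO13-/- over IPO13+/+ cells for 29 of the 30 genes (black) and for the nearest expressed gene before (orange) and after (green) it on the chromosome; dotted lines mark 2-fold. The flanking genes gather around 0 while the black points run from -2.01 to -6.49, and the only flanking symbols as low as a member are Ube2l6 and Smtnl1, each the neighbour of the other.

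The response to H2O2 asks whether the treatment moved these genes in either genotype. It was tested in edgeR's quasi-likelihood fit of all 8 libraries, with p-values adjusted over 19424 genes to a false discovery rate (FDR). Calls required an FDR below 0.05 and a change of at least 2-fold. The choice limits how far a gene could rise in treated IPO13-/- cells or fall in treated IPO13+/+ cells. Libraries of the genotypes could not overlap, and the ratio of the means had to stay at 4 or more. How much room this left differed by gene. With 0.02 CPM added, the lowest IPO13+/+ library was 2.48 (Rbbp8nl) to 65.4 (Gm8801) times the highest IPO13-/- library.

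In IPO13+/+ cells 1 of the 30 genes was called, beside 2.90% of all genes tested. It was Obox6, whose 3.99 and 3.97 CPM untreated became 1.98 and 1.99 CPM after H2O2. It fell by 1.04 on the log2 scale (SE 0.13, edgeR FDR 3.39e-07). At an FDR below 0.05 without a fold limit, 3 genes rose, beside 11.5% of all genes, and 5 fell, beside 13.8%. The genes that rose were Rbbp8nl by 0.66 (SE 0.14, edgeR FDR 0.00079), Caps2 by 0.59 (SE 0.12, edgeR FDR 0.000545) and Smtnl1 by 0.29 (SE 0.09, edgeR FDR 0.0125). Besides Obox6, those that fell were Casq2 (log2 change -0.59, SE 0.11, edgeR FDR 0.000156), BC064078 (-0.39, SE 0.09, edgeR FDR 0.00246), Gm8801 (-0.20, SE 0.07, edgeR FDR 0.0449) and Ipp (-0.17, SE 0.04, edgeR FDR 0.00295). With DESeq2 only 3 of these 8 passed, and Smtnl1, Caps2, Rbbp8nl, BC064078 and Gm8801 did not. Gm8801 also failed in limma-voom (FDR 0.0885), and with 1 library left out its change ran from -0.31 without untreated replicate 2 to -0.08 without untreated replicate 1 of IPO13+/+ cells, with an edgeR FDR of up to 0.549. With 1 library left out the edgeR FDR rose to as much as 0.107 for Smtnl1 and 0.0553 for Ipp.

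In IPO13-/- cells 1 of the 30 was called, beside 2.89% of all genes tested. Smtnl1 went from 0.474 and 0.579 CPM to 1.07 and 1.00 CPM, and rose by 1.02 (SE 0.19, edgeR FDR 0.000142). It was not called without untreated replicate 1 or treated replicate 1 of IPO13-/- cells, where its change was under 2-fold, with log2 changes down to 0.88 and an edgeR FDR of at most 0.0173 over all libraries left out in turn. At an FDR below 0.05 alone it was the only one that rose, beside 14.9% of all genes, and none fell in edgeR, beside 14.4%, with 3 lower at an unadjusted p under 0.05, 0 in DESeq2 and 1 in limma-voom. For the unadjusted limit the share of all genes was not counted. Obox6 had a log2 change of -0.93 in these cells (SE 0.39, edgeR FDR 0.0743), and with 1 library left out it ran from -2.39 without treated replicate 2 (edgeR FDR 0.00151) to -0.18 without treated replicate 1 of IPO13-/- cells (edgeR FDR 0.806). H2-Q1, at 5 and 1 counts untreated and 0 in both treated libraries, was called with limma-voom, with the filterByExpr filter and with the replicate block, but 6 counts carry no fold change and none is given. Counting depth limits this genotype, since 11 of the 30 genes were at or under 3 counts in at least 1 IPO13-/- library, 2 of them (Pgpep1l and Trim30d) in all 4.

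The difference between the responses was tested as an interaction of genotype and H2O2. No gene of the 30 passed an FDR of 0.05 with edgeR or limma-voom, nor any of the 16 to which DESeq2 gave an FDR, its filtering leaving the other 14 without one, beside 2.71% of all genes with edgeR, and 6 had an unadjusted p under 0.05. The share of all genes under that unadjusted limit was not counted, so no excess is read from the 6. The nearest was Smtnl1, whose response was larger in IPO13-/- cells by 0.73 on the log2 scale (SE 0.21, edgeR FDR 0.0617), and it passed in a fit with a replicate block (edgeR FDR 0.0276), while over all alternatives its FDR ran from 0.0276 to 0.522. Without untreated replicate 2 of IPO13+/+ cells 2 genes passed, Smtnl1 at 0.79 (edgeR FDR 0.0331) and B4galt6 at 0.21 (edgeR FDR 0.0426), the latter having 0.10 with all libraries and -0.01 without untreated replicate 1. For Caps2 the interaction was -1.03 (SE 0.34, edgeR FDR 0.115) and for Casq2 1.01 (SE 0.36, edgeR FDR 0.151). Over the 30 genes the median log2 response was -0.04 in IPO13+/+ and 0.10 in IPO13-/- cells, beside 0.00 in either genotype over all genes tested.

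**Figure D4:**
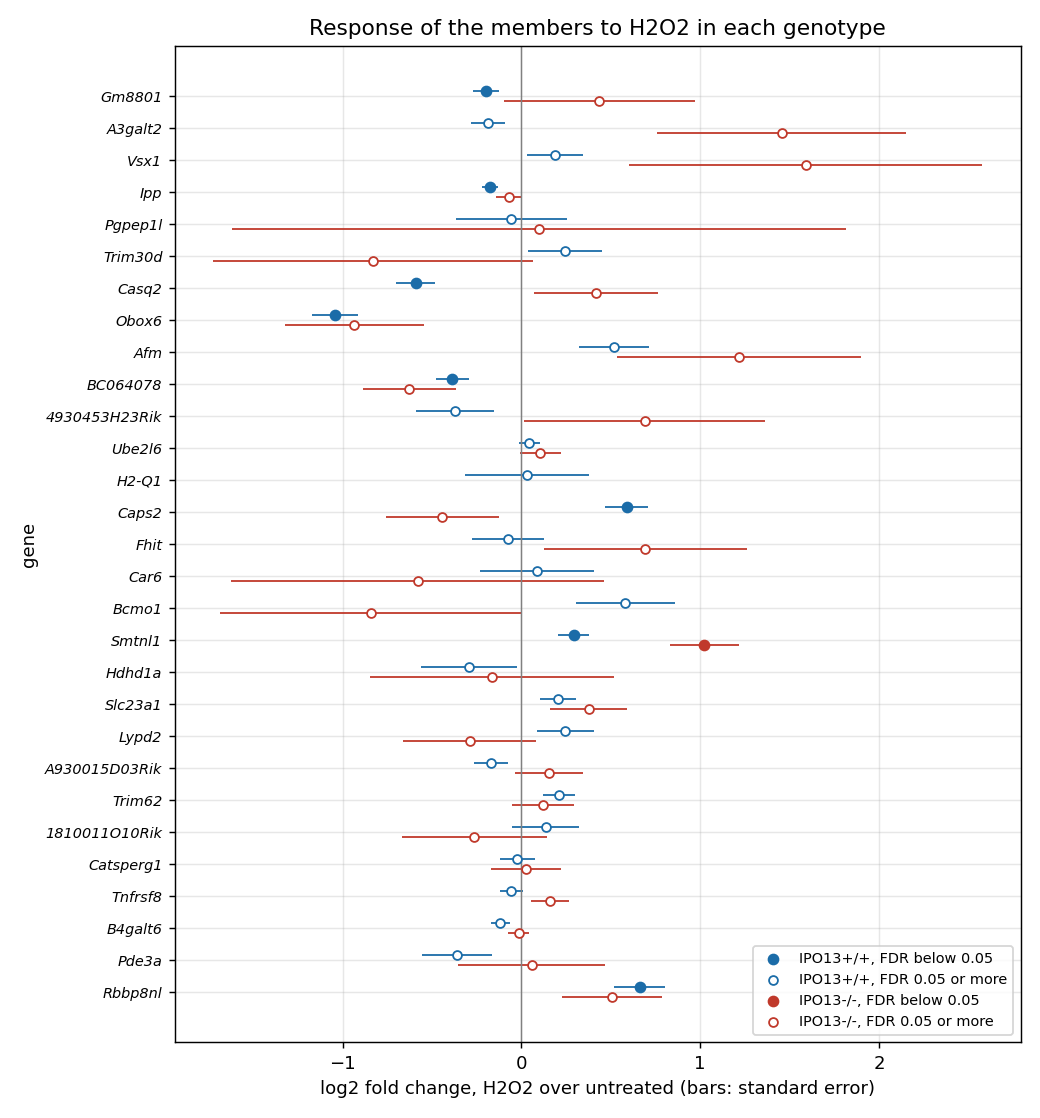
Log2 fold change after H2O2 over untreated for 29 of the 30 genes in IPO13+/+ (blue) and IPO13-/- cells (red), with bars of 1 standard error from edgeR; filled symbols have an FDR below 0.05, and H2-Q1 has no red point because both treated IPO13-/- libraries were at 0. Filled blue symbols mark 8 genes, with Obox6 the lowest at -1.04, and the only filled red symbol is Smtnl1 at 1.02.

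For 5 of the categories above, the other genes of a longer list were examined between genotypes, averaged over both treatments. Of all genes tested, 3.09% passed as higher without IPO13 and 1.98% as lower, and genes of the group were left out of the counts because they were chosen on this contrast. Of 24 other interferon-stimulated genes 4 were higher and 1 was lower. The antiviral GTPase genes Mx1, at a log2 difference of 2.84 (SE 0.46, edgeR FDR 7.75e-06), and Mx2, with 0 to 0.0147 CPM against 0.0324 to 0.109 CPM and too few counts for a fold, were higher, as were Herc6 at 1.36 and Trim30a at 1.00, and Tmem173, the STING gene, was lower at -2.01 (SE 0.14, edgeR FDR 2.11e-12). Mx1 was of few counts as well, with 0.0139 to 0.0865 CPM in IPO13+/+ and 0.182 to 0.373 CPM in IPO13-/- libraries. The Trim30a libraries overlapped, with 0.0555 to 0.274 CPM against 0.248 to 0.544 CPM. The median over these 24 genes was 0.02, beside 0.00 over all genes tested.

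Of 22 other genes of retinoid metabolism 2 were higher and 2 lower. The retinaldehyde dehydrogenase genes were divided, with Aldh1a1 (0 to 0.0588 CPM against 0.109 to 0.133 CPM) and Aldh1a7 (0.0145 to 0.0588 CPM against 0.0932 to 0.163 CPM), both of few counts, higher but Aldh1a3 at -1.60, and the retinal reductase gene Dhrs3 was at -1.05. Of 23 other oocyte and early embryo genes 5 were higher, namely Zscan4c at 1.02, Tcstv3 with 0 to 0.0288 CPM against 0.0621 to 0.163 CPM, Nlrp5 at 1.63, Nlrp14 at 1.80 and Dazl at 1.02, and 1 was lower, Trim61 at -2.25. Few counts lay behind Nlrp5, whose libraries overlapped (0.0139 to 0.1442 CPM against 0.1135 to 0.2952 CPM), and behind Trim61 (0.1297 to 0.3324 CPM against 0 to 0.0932 CPM). Of 18 other muscle genes 4 were higher, the contractile genes Acta2 at 1.64, Actc1 with 0.0139 to 0.0147 CPM against 0.0973 to 0.182 CPM, Myh6 at 1.30 and Myh7 at 2.06, and 1 was lower, Casq1 at -1.78. Acta2 (0.0289 to 0.1666 CPM against 0.202 to 0.515 CPM) and Myh7 (0.0578 to 0.1586 CPM against 0.3117 to 0.4539 CPM) were low in both genotypes. In these 3 lists, other genes were called in both directions.

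Of 17 other macrophage and lymphoid genes 0 were higher in edgeR, at an unadjusted p under 0.05, in DESeq2 or in limma-voom, and 4 were lower. They were the mannose receptor gene Mrc1 at -2.01 (SE 0.11, edgeR FDR 8.82e-15), Srgn at -2.17 (SE 0.28, edgeR FDR 2.45e-07), Ptafr, the receptor of platelet-activating factor, at -3.24 (SE 0.52, edgeR FDR 8.02e-06) and Pla2g7, which degrades that factor, at -1.81 (SE 0.05, edgeR FDR 4.76e-22). The list was drawn up with earlier results of these data known, and Srgn lay just outside the choice itself, at a ratio of 3.91. Ptafr was of few counts, with 0.188 to 0.319 CPM in IPO13+/+ and 0 to 0.0777 CPM in IPO13-/- libraries. Pla2g7 was the most abundant, with 24.6 to 27.0 CPM in IPO13+/+ and 6.26 to 8.69 CPM in IPO13-/- libraries. Laptm5, a lysosomal membrane protein gene, was lower by less than 2-fold, with 204 to 260 CPM against 150 to 195 CPM, and Ptprc, Itgam and Cd68 overlapped between genotypes. Other genes of the list were almost absent in every library, with Csf1r at or under 0.0865 CPM and Tyrobp, Lyz2 and Aif1 at or under 0.0166 CPM. The list median was -0.46, and the part of such cells in the Tnfrsf8 values was not tested. Of 21 pluripotency genes 0 were called in either direction in edgeR, DESeq2 or limma-voom, where a call required a 2-fold change. Smaller differences passed an FDR of 0.05 in both directions. Among them were Dppa5a at -0.53 (edgeR FDR 1.02e-15) and Lin28a at -0.51 (edgeR FDR 7.31e-15). Sall4 at 0.215 (edgeR FDR 1.21e-06) and Utf1 at 0.212 (edgeR FDR 7.52e-07) went the other way. At an unadjusted edgeR p under 0.05, 6 were higher and 10 lower, and the median was -0.03.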

How the data were processed

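The 8 RNA-seq libraries were grouped by genotype and treatment from their labels. Per the labels and the submitters' processing notes, the authors mapped reads to mm10 with STAR 2.3.1 and counted them with HTSeq. They deposited raw counts and CPM values (counts scaled to 1000000 per library) for 23420 symbols. The choice of the 30 genes used the deposited CPM and all tests used the deposited counts. The genes and lists were chosen with earlier results of these data known. Of the 30 genes 29 are named and drawn, and 1, which is in all counts, is not reported here. Values of every library are given for the 15 largest ratios, for called genes and for the 5 highest per kilobase.

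Differences were tested with edgeR 4.0.16 under R 4.3.3 (TMM factors, quasi-likelihood, 1 coefficient per group, Benjamini-Hochberg adjustment) on the 19424 genes that had a count in some library. The standard error is the absolute log2 change divided by the square root of F. The common dispersion was 0.00113, 1 value for groups whose replicates differed unequally. The chi-square between the 2 replicates, averaged over genes, was 15.0 for untreated and 2.265 for treated IPO13+/+ libraries. For IPO13-/- libraries it was 4.585 untreated and 6.589 treated. limma 3.58.1, DESeq2 1.42.0, other factors and filters, a replicate block and each library left out in turn were alternatives, and the code was tested on simulated data. Positions and exon lengths came from GENCODE M21 on GRCm38, which held 22956 symbols, 1244 of them by an older name. Calls at an FDR below 0.05 without a fold limit, and the glycosphingolipid and paralog lists, were added after the data were examined. Intervals and the 3-count floor cover counting error only, and the intervals do not allow for the choice of the genes on these counts. With 0.02 CPM added, as in the choice, the ratios were 13.7 for Pgpep1l, 13.6 for Trim30d, 7.87 for H2-Q1 and 7.24 for Car6.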

Additional observations from a re-analysis of the deposited data

How the results depend on the processing

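With a pseudocount of 0.5 CPM in place of 0.02 CPM the choice returned 11 genes, 3 of them on chromosome 4, because low genes can then no longer reach the ratio. Scaling with TMM factors returned 32, adding Lefty1 and Srgn, a minimum of 1 CPM 20, untreated libraries alone 34, H2O2 libraries alone 39 and leaving out 1 library 29 to 34. With 1 library left out 5 to 6 lay on chromosome 4, while the minimum of 1 CPM lost Car6 of that chromosome. The call of Obox6 in IPO13+/+ cells held in every alternative. Without a fold limit DESeq2 passed 3 genes in place of 8 there, and leaving out 1 library 5 to 9. In IPO13-/- cells limma-voom and filterByExpr called 2 genes in place of 1, also without a fold limit, and leaving out 1 library 0 to 2, or 1 to 2 without a fold limit. The second gene was H2-Q1, and Obox6 without IPO13-/- treated replicate 2. Interaction calls over all genes, 527 with edgeR, were 287 with DESeq2, 255 with limma-voom, 349 with filterByExpr and 73 to 1157 with 1 library left out, moving by over 1.5 times without each of the 8, and over the 30 genes 0 to 2. These shifts' cause was not tested. No call turned its direction, but among uncalled values of the 30 genes 1 library left out could turn 7 responses in IPO13+/+ cells, 13 in IPO13-/- cells and 13 interactions.

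Replicates share only a number, since neither labels nor methods pair them, although deviations of same-numbered libraries correlated at 0.19 to 0.42 in the 3 pairs of groups without treated IPO13+/+ cells and at -0.04 to 0.00 in the 3 with them. With the replicate block, IPO13-/- calls were 2, or 3 without a fold limit, and the interaction gave 1 of the 30 genes and 1291 of all genes. Counting depth limits the lowest genes, 11 of which had a library at or under 3 counts.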
